A study of Homo sapiens with 4 samples.

Results

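The adenosines described here stand 1 base away from the target motif of the human m6A methyltransferase. They have C at -2, A or G at -1 and C at +1, with any base at +2, a pattern written CRACN, where R is A or G and N is any base. They differ from the consensus DRACN, in which D is A, G or U, only by the C at -2. The rule used the sequence alone, and it was applied to those of the 141 counted positions of each RNA that have 2 neighbours on either side. It found 7065 such adenosines among 374816 adenosines at those positions and 1691859 positions in all. They lay in 5005 of 11999 RNAs and at 2339 distinct positions of 1655 sequences, because most sequences were made as several copies that differed only in a short tag.

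N6-methyladenosine (m6A) is the most common internal modification of eukaryotic messenger RNA. METTL3 carries the catalytic site of the writer complex, and METTL14 supports RNA binding. In cells the modification is found mostly at adenosines in the DRACH consensus (H is A, C or U), in which the C behind the adenosine is close to invariant. In miCLIP2 an antibody against m6A is crosslinked to RNA with ultraviolet light, and reverse transcription stops at the crosslink, so that each stop marks 1 nucleotide.

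The study measured such stops on in vitro transcribed RNAs of designed sequence, taken from human loci that miCLIP2 had called methylated or unmodified in HEK293T, a line of human embryonic kidney cells. The methylated group held 2 libraries of RNA incubated with recombinant METTL3–METTL14. The unmethylated group held 2 libraries of the same RNA pool incubated without the complex and labelled untreated. Both groups were precipitated with the same m6A antibody from SySy, so the unmethylated libraries measure the stops of that antibody and of the protocol on RNA made without m6A. The RNAs contained no cellular protein, reader or demethylase, and each was a short stretch around a selected adenosine at position 51, which was never one of the CRACN adenosines. Among the sequences with their classes in the table, 1988 were of the m6A class, 1500 of the unmodified class and 400 of the permutated class, in which motifs had been exchanged, and 61 belonged to none of these.

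The methylated libraries held 13110615 and 13265092 counts and the unmethylated ones 10483825 and 12028474. The median RNA had 179 and 215 counts in the methylated libraries and 167 and 156 in the unmethylated ones. RNA totals of replicates differed by more than counting error, with a chi-square per degree of freedom of 18.7 in the methylated and 20.7 in the unmethylated pair. Nothing in the labels says that replicates came from separate methylation reactions, so the p-values below measure no more than the spread between the samples at hand, and that spread may be technical. The CRACN adenosines were thinly covered: 43.2% had no count in any library, and the median was 1 count over all 4 libraries.

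The sequences below surround the CRACN adenosines whose values are given site by site further on. Each run shows 8 nt on either side of the 5-mer, 5′ to 3′, with T for U as in the table, and capitals mark the CRACN 5-mer, whose middle base is the adenosine counted. Distances are those of the member adenosine from the selected adenosine of its RNA, negative when upstream. The locus is that of the selected adenosine, as the table gives it, in a genome build that the sources used here do not name. Gene symbols come from the overlap with RefSeq genes of GRCh38.p14. The first 5 were higher after methylation in all tag copies with enough counts or in 2 of 3, the next 6 were higher in 1 copy, and the last 3 carried high counts that were lower or did not pass the test.
ARRDC1, -8 nt, locus on chromosome 9 at 137614341 (+): tggatccaCGACGtacggacc
ALKBH4, -6 nt, locus on chromosome 7 at 102457833 (-): gagcagtgCAACCtggactac
TBCB, 62 nt, locus on chromosome 19 at 36116046 (+): ggagttgaCGACAagttctac
TACO1, 12 nt, locus on chromosome 17 at 63608127 (+): aggacttgCGACCttgaagcc
B9D2, -32 nt, locus on chromosome 19 at 41354696 (-): ctgctccgCAACTtcgaccgc
TRIM56, 43 nt, locus on chromosome 7 at 101087496 (+): ttcaagacCAACTtcttcgtc
WDR45, 40 nt, locus on chromosome X at 49078092 (-): ctgcgtttCAACCaagaccaa
GPR157, 10 nt, locus on chromosome 1 at 9103923 (-): actttgctCAACAgaggaacc
ZNF503, -9 nt, locus on chromosome 10 at 75399920 (-): ggcaaggaCGACAagaaagac
TKT, 35 nt, locus on chromosome 3 at 53228542 (+): accgaaggCAACTttccacca
TGFBRAP1, 57 nt, locus on chromosome 2 at 105307863 (-): ggaggtgtCGACTgccgagca
MID1IP1, 39 nt, locus on chromosome X at 38805203 (+): tccatccgCAACGacatcgag
CREBBP, 44 nt, locus on chromosome 16 at 3729079 (-): atgtgcccCGACCcaaccagg
A locus with no single gene, 61 nt, locus on chromosome 22 at 21002072 (-): gggggaccCGACAggccagag

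The first comparison asked how much signal all CRACN adenosines together gained after methylation. Their summed signal was 2847 and 2739 CPM (counts per 1000000 counts of the library) in the methylated libraries, against 2458 and 2319 CPM in the unmethylated ones. Both methylated libraries lay above both unmethylated ones. The group means were 2793 ± 76.5 CPM methylated and 2389 ± 98.6 CPM unmethylated (SD, n = 2 each), a ratio of 1.17 ± 0.0579. With 2 libraries against 2, an exact two-sided permutation test cannot give a p below 0.333, which was its value here. As a share of all counts, the CRACN adenosines took 0.285% (95% Wilson interval 0.282% to 0.288%) and 0.274% (0.271% to 0.277%) in the methylated libraries, against 0.246% (0.243% to 0.249%) and 0.232% (0.229% to 0.235%) in the unmethylated ones. These intervals cover counting error only and leave out the spread between replicates. They are too narrow even for counting error where several reads come from 1 molecule.

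The gain was as large when the signal was set against the RNAs that carry it. Of every 1000 counts of their own RNAs, the CRACN adenosines took 6.55 and 6.31 in the methylated libraries and 5.61 and 5.31 in the unmethylated ones, a ratio of 1.18. A few sites weighed heavily in these sums. The 71 strongest members, 1% of them, held 36.6% of the summed CPM, and without them the pooled ratio was 1.26.

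The base at -2 separated the CRACN adenosines from the consensus. In the methylated libraries the mean level per site was 0.395 CPM with C, 1.16 CPM with G, 0.568 CPM with A and 0.474 CPM with T. In the unmethylated libraries it was 0.338 CPM with C, 0.355 CPM with G, 0.339 CPM with A and 0.326 CPM with T, so the bases lay close together there. The pooled ratio of methylated over unmethylated was thus 1.17 for CRACN, against 3.28 for GRACN, 1.68 for ARACN and 1.45 for TRACN. In each of these classes both methylated libraries lay above both unmethylated ones.

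The difference between classes was taken within each library, as the log2 of the CRACN signal over that of the other class. Against GRACN it was -3.068 and -3.091 in the methylated libraries and -1.497 and -1.686 in the unmethylated ones, a methylated minus unmethylated difference of -1.49. The same difference was -0.52 against ARACN and -0.31 against TRACN, and against all DRACN adenosines it was -1.03, equal to a ratio of 0.491. The groups did not overlap in any of these 4 comparisons, and each exact permutation p was 0.333, the smallest that the design allows.

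**Figure D1:**
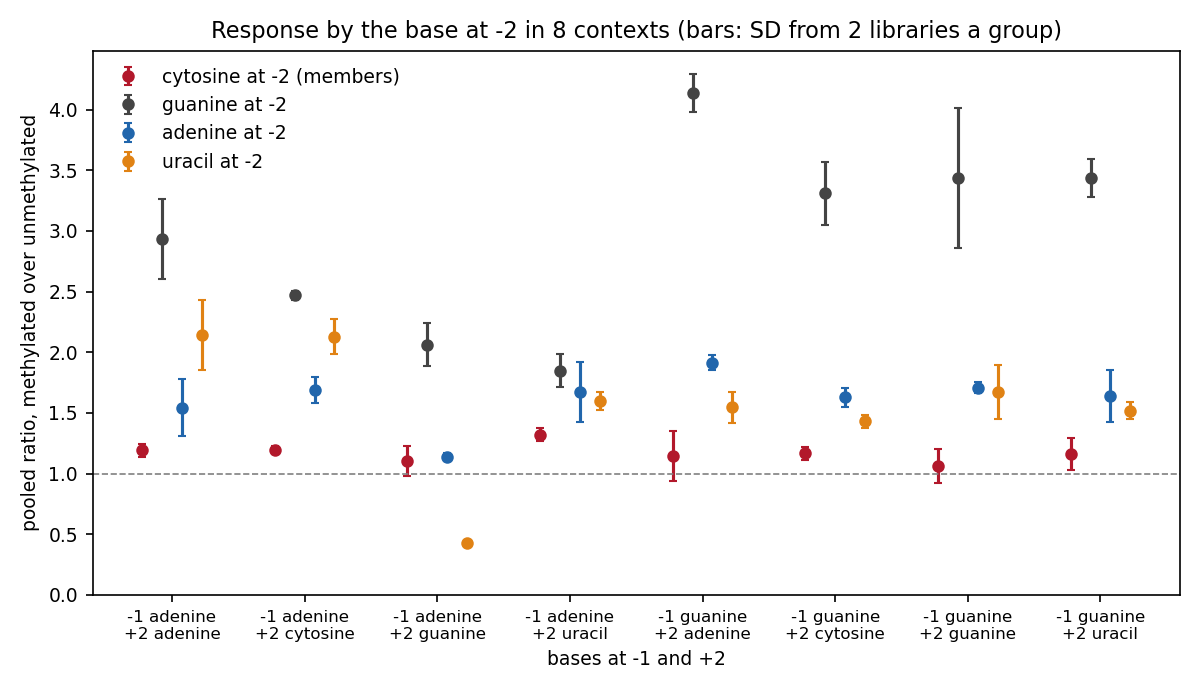
Pooled ratio of methylated over unmethylated signal (vertical axis) for adenosines before cytosine, by the bases at -1 and +2 (horizontal axis) and the base at -2 (colours, cytosine first), with bars for the SD from 2 libraries in each group. Cytosine at -2 gave the lowest ratio in 7 of 8 contexts, guanine the highest in 8 of 8.

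Across the 8 combinations of -1 and +2 base, C at -2 gave the lowest of the 4 ratios in 7 and G the highest in 8. The exception was A at -1 with G at +2, where TAACG had a ratio of 0.428, with 116.2 and 123.3 CPM in the methylated libraries and 276 and 284 CPM in the unmethylated ones over 192 sites. That sum went against the typical site: of the 13 TAACG adenosines with enough counts for the edgeR test described below, 9 lay above 0, 2 rose and 2 fell, and their median log2 fold change was 1.01, against 0.25 for CAACG. CRACN ratios ran from 1.06 to 1.32, GRACN ratios from 1.85 to 4.13 and ARACN ratios from 1.14 to 1.92. No CRACN 5-mer therefore reached the weakest GRACN 5-mer, while the CRACN and ARACN ranges met.

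The base behind the adenosine was compared in the same way. Adenosines with C at -2 and A or G at -1 but with A, G or T at +1 had 17940 and 17282 CPM in the methylated libraries, against 17934 and 18064 CPM in the unmethylated ones, and the groups overlapped. Their ratio was 0.978. Within libraries the methylated minus unmethylated difference of CRACN from them was 0.26 on the log2 scale, with methylated values of -2.66 and -2.66 and unmethylated values of -2.87 and -2.96 and no overlap (exact permutation p = 0.333). By the base at +1 the ratios were 1.17 for C, 0.995 for A, 1.00 for G and 0.894 for T.

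The size of the CRACN gain was also that of adenosines outside the purine rule at -1. Adenosines before C with C or T at -1 had a ratio of 1.17, and the difference from CRACN within libraries was 0.0035 on the log2 scale, with overlapping groups (exact permutation p = 1). Where such adenosines had C at -2 too, and so shared that base with CRACN, the ratio was 1.09. With groups of 2 these values cannot show that the classes respond alike.

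By the bases at -1 and +2, CAACT had the largest ratio. It had 278 and 291 CPM in the methylated libraries, against 211 and 219 CPM in the unmethylated ones, a ratio of 1.32 ± 0.0531. CAACC had 361 and 364 CPM methylated and 308 and 297 CPM unmethylated, a ratio of 1.20 ± 0.0332. For CAACA the values were 541 and 525 CPM methylated and 460 and 434 CPM unmethylated, a ratio of 1.19 ± 0.0552. In these 3 the methylated libraries were clear of the unmethylated ones by at least the distance between replicates.

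CGACC reached 346 and 331 CPM in the methylated libraries and 283 and 296 CPM in the unmethylated ones, a ratio of 1.17 ± 0.0512. CGACT had 316 and 296 CPM methylated and 243 and 282 CPM unmethylated, a ratio of 1.16 ± 0.134. The groups were separate in both. For CGACC too they were clear by at least the distance between replicates, but the 2 unmethylated CGACT values lay further apart than the groups did.

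In the other 3 5-mers the groups overlapped. CGACA had 436 and 413 CPM methylated and 416 and 325 CPM unmethylated, a ratio of 1.15 ± 0.206. CAACG had 365 and 326 CPM methylated and 331 and 296 CPM unmethylated, a ratio of 1.10 ± 0.123. CGACG, the lowest, had 204 and 194 CPM methylated and 205 and 170 CPM unmethylated, a ratio of 1.06 ± 0.144, and without unmethylated replicate 2 the ratio was 0.973. The pair of 5-mers with G at +2, the base outside the DRACH consensus, thus had the lowest pooled ratios, but that order depended on the measure. As a share of their own RNAs CGACC had the lowest ratio, 1.12, with 1.13 for CGACG and 1.14 for CAACG. Without the strongest 1% of sites CGACC (1.21) and CGACT (1.21) lay below CGACG (1.22) and CAACG (1.24). The 8 exact permutation p-values were 0.533 to 1 after Benjamini-Hochberg adjustment over the 8, so none of the 5-mers passed a threshold that 2 libraries a group could not reach.

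**Figure D2:**
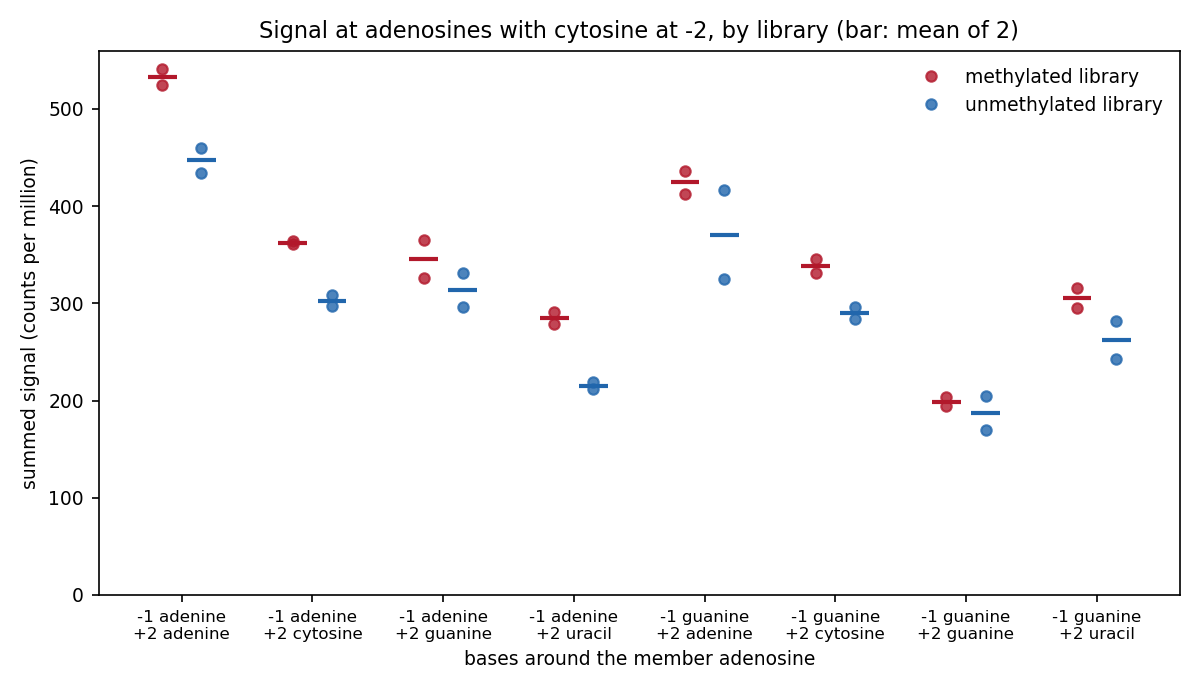
Summed signal in CPM (vertical axis) at CRACN adenosines by the bases at -1 and +2 (horizontal axis), with 1 point for each methylated library (red, left) and each unmethylated library (blue, right) and a bar at the mean of 2. The highest point is 541 CPM, and the groups are separate in 5 of the 8 contexts.

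Taken by 1 base at a time, A at -1 gave a ratio of 1.19 (1546 and 1506 CPM methylated, 1311 and 1246 CPM unmethylated) and G at -1 gave 1.14 (1302 and 1233 CPM methylated, 1148 and 1073 CPM unmethylated). This order is the reverse of that in GRACN, where the 4 GGACN ratios of 3.31 to 4.13 all exceeded the 4 GAACN ratios of 1.85 to 2.93. It was not particular to C at -2. With A, C and T at +2 the TAACN ratios (2.14, 2.13 and 1.60) exceeded the TGACN ratios (1.55, 1.43 and 1.52). With G at +2 they did not (0.428 against 1.67). In ARACN A at -1 was above G with C and T at +2, and below it with A and G. The difference between the CAACN and CGACN ratios was within their errors of 0.0479 and 0.0698. At +2 the ratios were 1.24 for T, 1.18 for C, 1.17 for A and 1.09 for G, and of these 4 bases only G had overlapping groups.

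The base at +3, outside the 5-mer, separated the members more than the base at -1 or at +2. With T at +3 the CRACN signal was 516 and 497 CPM in the methylated libraries, against 362 and 340 CPM in the unmethylated ones, a ratio of 1.44 ± 0.0733. The other bases at +3 gave 1.14 for A, 1.14 for G and 1.08 for C, and the groups were separate for each. Per site, members with T at +3 had the lowest level in both groups, 0.281 CPM methylated and 0.195 CPM unmethylated. With the other bases the level was 0.404 to 0.488 CPM methylated and 0.355 to 0.427 CPM unmethylated. T at +3 gave the highest of the 4 ratios in 7 of the 8 CRACN 5-mers, with values from 1.31 to 2.09. The exception was CAACC, where A at +3 gave 1.37 and T gave 1.31.

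T at +3 also stood out with other bases at -2, though not with all. It gave 4.82 in GRACN, where the next ratio was 3.63 for A, and 2.13 in ARACN, where the next was 1.85 for A. In TRACN the pooled ratio with T was the lowest of the 4, 1.29, but by single tested sites T was highest there too, with 23.4% of sites higher by the edgeR test described below and a median log2 fold change of 0.92, against 14.2% to 21.7% and 0.57 to 0.75 for the other bases. Adenosines before C with C or T at -1 had a ratio of 1.33 with T at +3, against 1.09 to 1.16 with the other bases. With C at -2 and without C at +1 the ratio with T at +3 was 1.07. It too was the highest of the 4, against 0.939 for A, 0.998 for C and 0.965 for G.

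**Figure D3:**
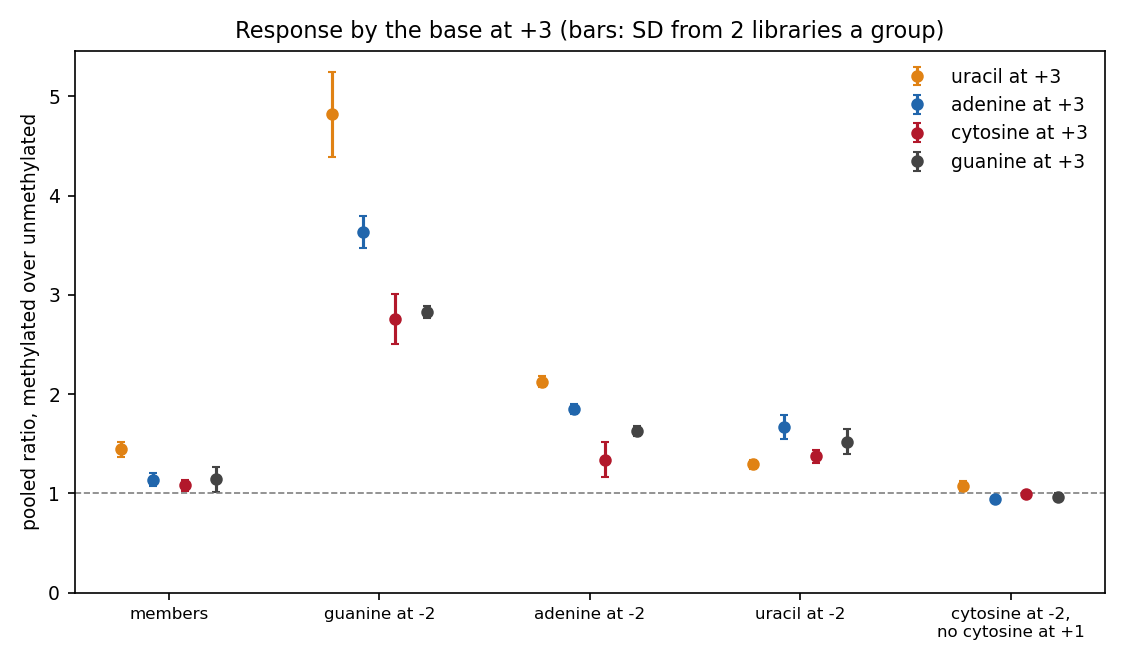
Pooled ratio of methylated over unmethylated signal (vertical axis) by the base at +3 (colours) in CRACN adenosines (left, members), in the 3 DRACN classes and in adenosines with cytosine at -2 and no cytosine at +1, with bars for the SD from 2 libraries in each group. Uracil at +3 gave 1.44 in the members and 4.82 with guanine at -2.

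At -3, A gave the largest CRACN ratio, 1.36 (566 and 529 CPM methylated, 418 and 390 CPM unmethylated), against 1.20 for T, 1.11 for C and 1.10 for G. Some of the members with A at -3 overlap a consensus motif, because their C at -2 is also the C that follows a DRACN adenosine at -3. These 756 overlapping members had a ratio of 1.41, with 271 and 255 CPM in the methylated libraries and 196 and 176 CPM in the unmethylated ones. What this overlap contributes to the ratio with A at -3 was not tested.

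Distance from the consensus was examined because every RNA with a CRACN adenosine also held a DRACN adenosine. The pooled ratio was 1.41 where a DRACN adenosine lay at -3, 1.20 where the nearest one was 4 to 9 nt away, 1.12 at 10 to 19 nt and 1.13 at 20 nt or more. For the 4259 members at least 10 nt away from any DRACN adenosine the signal was 1757 and 1687 CPM methylated and 1550 and 1506 CPM unmethylated, a ratio of 1.13 ± 0.0395. The groups were still separate. Within that set, CAACG and CGACG no longer had more signal after methylation, with ratios of 0.993 and 0.934.

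The signal around the members was compared position by position. At the adenosine itself the mean was 0.395 CPM per site methylated and 0.338 CPM unmethylated, and the ratio of 1.17 was higher than at the other positions within 10 nt on either side except -3, where it was 1.23. At -1 the ratio was 0.927 and at +1 it was 1.01. Among members at least 10 nt from DRACN the ratio at the adenosine, 1.13, was the highest of the 21 positions, and that at -3 was 1.03.

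**Figure D4:**
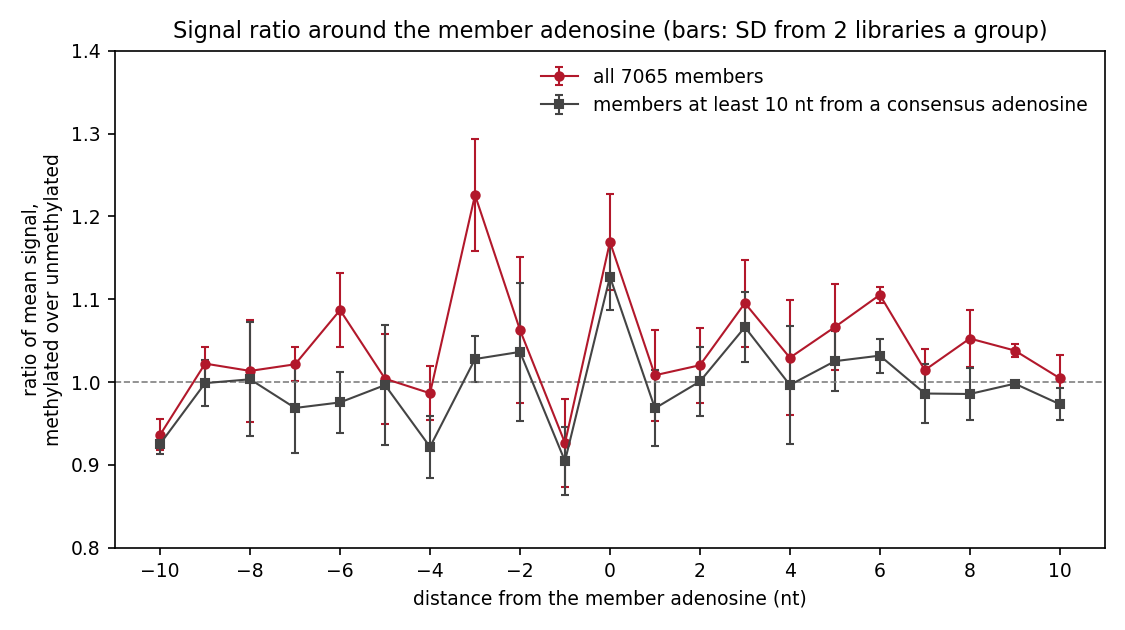
Ratio of mean methylated over mean unmethylated signal per site (vertical axis) at each distance in nt from the CRACN adenosine (horizontal axis), for all 7065 members (red circles) and for those at least 10 nt from a DRACN adenosine (grey squares), with bars for the SD from 2 libraries in each group. The red line peaks at -3 (1.23) and at 0 (1.17), the grey line at 0 (1.13).

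Single sites were tested with edgeR (quasi-likelihood test, adjusted over all 194723 sites in which 2 or more of the 4 libraries reached 10 counts). Of the 7065 CRACN adenosines 718, or 10.2%, could be tested, against 11.5% of all positions, and these held 80.9% of the CRACN signal. Of the 718, 49 rose and 5 fell at an adjusted p under 0.05. The rises were 6.82% of those tested, against 3.8% of all tested sites, and the falls 0.696%, against 1.84%. Most tested positions are not adenosines, and among all tested adenosines, consensus ones included, the share that rose was 7.71%, above that of CRACN. The median log2 fold change was 0.29 for the tested CRACN adenosines and -0.016 for all tested sites, and 459 of the 718 lay above 0. The number of rises was 21 without methylated replicate 1, 31 without methylated replicate 2 and 19 with DESeq2. The number of falls was 3 without methylated replicate 1, 1 without methylated replicate 2, 9 without unmethylated replicate 2 and 2 with DESeq2. DESeq2 gave no adjusted p for 14 of the 49 rises, left 16 at or above the threshold, and had the same sign for all 49.

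The filter admits some sites only through the group in which they are high. Of the 718, 120 passed only through both methylated libraries, and 33 of the 49 rises were among them. Over all tested sites 8.92% passed in that way. Where the mean over all 4 libraries was at least 20 counts, 25 of 332 CRACN adenosines rose, or 7.53%, against 5.02% of all sites at that level.

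The same test gave the consensus classes larger shares. In GRACN 1825 of 3465 tested adenosines rose (52.7%, median log2 fold change 2.02), in ARACN 379 of 1596 (23.7%, median 0.78) and in TRACN 183 of 1022 (17.9%, median 0.68). CRACN adenosines stood nearer to those before C with C or T at -1, of which 273 of 3392 rose (8.05%, median 0.28). Where these had C at -2 too, 50 of 1161 rose (4.31%, median 0.14), a smaller share than in CRACN. With C at -2 and no C at +1, 56 of 3573 rose and 71 fell (1.57% rose, median -0.044). The C behind the CRACN adenosine, which shares its RNA and its neighbourhood, rose at 18 and fell at 8 of 802 tested positions. The rises were 2.24%, below the 3.8% of all tested sites, of which 1.84% fell. The median log2 fold change of that C was -0.061.

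**Figure D5:**
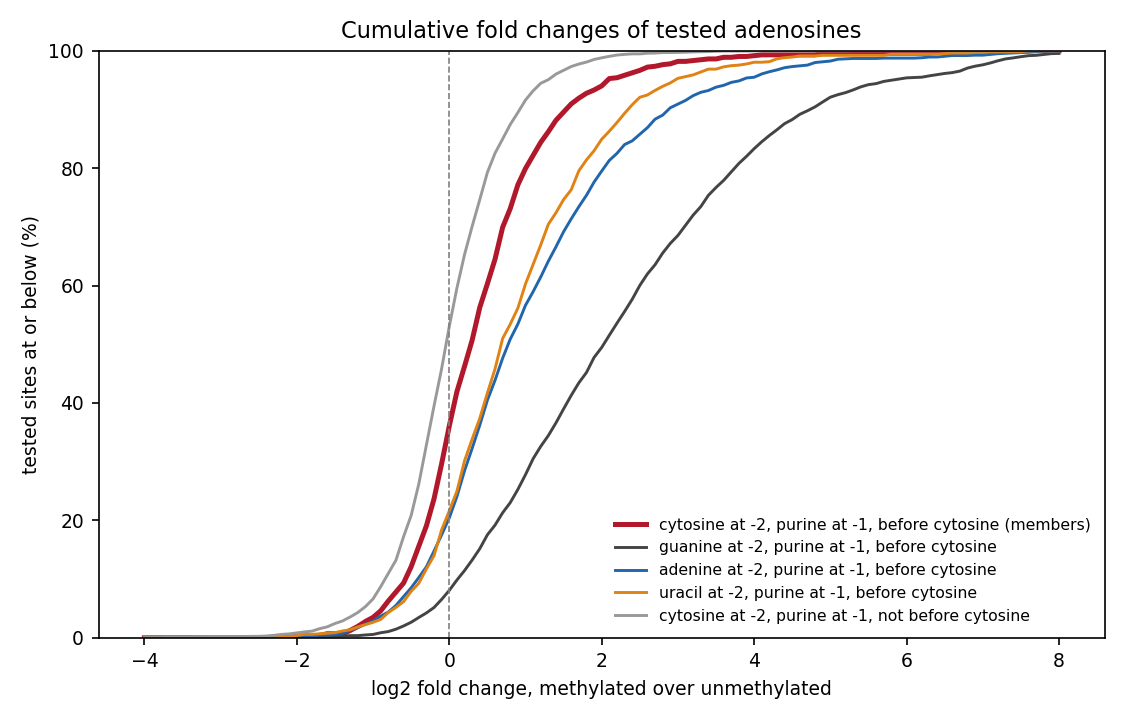
Cumulative share in percent (vertical axis) of tested adenosines at or below each log2 fold change of methylated over unmethylated (horizontal axis), with CRACN as the thick red line. The CRACN median of 0.29 lies between -0.044 for sites without cytosine at +1 and 0.68 for uracil at -2.

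By 5-mer, 11 adenosines rose in CGACA (11.1% of those tested), 9 in CAACA (7.14%), 8 in CAACT (8.60%), 7 in CAACC (6.42%), 5 in CAACG (5.32%), 4 in CGACC (5.56%), 3 in CGACG (5%) and 2 in CGACT (3.08%). All 5 falls had A at -1, as did 4710 of the 7065 members, tested or not. With so few falls this shows no preference for that base, and none was tested. The order of the 5-mers by called sites was not that by pooled ratio, since CGACA led here while its pooled groups overlapped. With T at +3, 16 of 149 rose (10.7%, median 0.65), against 6 of 166 with C at +3 (3.61%, median 0.094). The members at least 10 nt from DRACN rose at 22 of 413 positions (5.33%).

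A rise at an adenosine can be a rise of its whole RNA. The RNA total was more than 1.5 times higher in the methylated mean for 27 of the 49 rises. In the second edgeR test, in which the total of each RNA in each library replaced the library size, 24 CRACN adenosines rose and 1 fell. That was 3.34% of the 718, against 1.58% of all tested sites and 4.99% of all tested adenosines, and the fall stands against 0.296% of all. The median log2 fold change was 0.25, and 21 adenosines rose in both tests. Without methylated replicate 1 the rises against RNA totals numbered 9.

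Of the 718, 594 shared their RNA with a tested DRACN adenosine. The median log2 fold change was 0.26 for these members. For the median of the tested DRACN adenosines of the same RNA it was 1.12, and that median exceeded the member in 463 cases. In RNAs in which a DRACN adenosine rose by the edgeR test, 39 of 350 CRACN adenosines rose as well (11.1%, median 0.39). In RNAs with no such rise, 4 of 244 did (1.64%, median 0.061). Over all tested sites of any RNA 3.8% rose, and the share of all sites within each set of RNAs is not given here. The sets were split by calls from the same libraries. The comparison therefore cannot tell CRACN adenosines from other positions of those RNAs. The median depth per site over all libraries was 80 counts in the first set and 87 in the second. Against RNA totals, 17 of the 350 (4.86%) and 4 of the 244 (1.64%) rose, and the medians were 0.23 and 0.24. The DRACN adenosines are part of those totals, and what this contributes was not tested.

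Copies of one sequence were read as repeats of a position, although they share the libraries. At 206 positions more than 1 tag copy was tested, and the member rose in all tested copies at 4 of them and in only some at 22. The other 17 positions with a rise had been tested in 1 copy. Over 382 pairs of copies the log2 fold changes had a Pearson r of 0.50 and a Spearman rho of 0.477, given as a description because copies share their sequence and libraries. No position rose in one copy and fell in another.

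At 4 positions each tested copy rose. In 6 of their 8 copies both unmethylated libraries were under 10 counts, so those copies were tested only because the methylated libraries were high, and the count of 4 is a description that supports nothing about agreement between copies. The member in ALKBH4, a dioxygenase of the AlkB family, has the 5-mer CAACC and had 4.88 and 4.22 CPM in the methylated libraries, against 0.954 and 1.16 CPM in the unmethylated ones, in its first copy. Its log2 fold change was 2.07 ± 0.43 (SE, edgeR adjusted p = 0.00403), and the second copy gave 2.59 ± 0.61 (adjusted p = 0.0109). A GGACT adenosine stood 6 nt downstream in the same RNA and had log2 fold changes of 3.33 and 3.42 in the 2 copies. Against the RNA total neither copy passed (edgeR adjusted p = 0.0738 and 0.101). The call of the second copy was lost without methylated replicate 1 (adjusted p = 0.106).

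In TBCB, a folding cofactor of tubulin, the CGACA adenosine had 1.68 and 4.75 CPM methylated and 0.668 and 0.582 CPM unmethylated in one copy. In the other it had 1.45 and 2.04 CPM methylated and 0.191 and 0.333 CPM unmethylated. The methylated libraries were higher in both copies, though they differed between themselves in the first. The log2 fold changes were 2.33 ± 0.56 and 2.65 ± 0.66 (edgeR adjusted p = 0.0122 and 0.0164), and against the RNA total they were 2.45 and 2.59 (adjusted p = 0.00607 and 0.0309). Without methylated replicate 2 neither copy passed by library size (adjusted p = 0.367 and 0.226), and without unmethylated replicate 1 the second did not (0.0567). Its C at -2 follows a TGACG adenosine at -3, which rose by 2.04 and 2.26 on the log2 scale.

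TACO1, a translational activator of a mitochondrial cytochrome c oxidase subunit, has the 5-mer CGACC 12 nt downstream of the selected adenosine. In one copy it had 2.44 and 3.39 CPM methylated and 1.24 and 0.416 CPM unmethylated, a log2 fold change of 1.82 ± 0.52 (edgeR adjusted p = 0.0382). The other copy gave 2.46 ± 0.72 (adjusted p = 0.0442), and neither passed against the RNA total (adjusted p = 0.387 and 0.585). Both calls were lost without either methylated library or without unmethylated replicate 2 (adjusted p = 0.0532 to 0.216). A GGACT adenosine lay 7 nt upstream. In B9D2, a component of the ciliary transition zone, the CAACT adenosine lay 32 nt from the nearest DRACN adenosine, a GGACT. It had 1.91 and 1.36 CPM methylated and 0.0954 and 0.416 CPM unmethylated in one copy, a log2 fold change of 2.56 ± 0.69 (edgeR adjusted p = 0.0283), and 2.55 ± 0.72 in the other (adjusted p = 0.0357). Of these 4 positions it was the only one with no DRACN adenosine within 10 nt, and it did not pass against the RNA total (adjusted p = 0.1 and 0.415). Without methylated replicate 1 neither copy passed (adjusted p = 0.385 and 0.440). The first also failed without unmethylated replicate 1 (0.129), and the second without methylated replicate 2 (0.155) or unmethylated replicate 2 (0.123).

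ARRDC1, an arrestin-domain protein, carried the smallest adjusted p of the sites named here. Its CGACG adenosine had 4.88 and 4.67 CPM in the methylated libraries, against 0.477 and 0.333 CPM in the unmethylated ones, a log2 fold change of 3.53 ± 0.50 (edgeR adjusted p = 7.6e-05). In a second copy, 16 and 14 counts in the methylated libraries stood against none in the unmethylated ones, which makes it at least 4.25-fold higher (adjusted p = 0.00474) with 3 counts in each unmethylated library, as mean CPM, taken as the floor. The third copy had 18 and 20 counts methylated and 3 and 7 unmethylated and did not pass (adjusted p = 0.13). In each copy both unmethylated libraries were under 10 counts. Each was therefore tested only because the methylated libraries were high, which fixed the direction in advance. The RNA itself gained signal, with mean totals of 12798 counts methylated and 3998 counts unmethylated in the first copy, and a GGACC adenosine 8 nt downstream rose by 5.93 on the log2 scale there. Against that total the CGACG adenosine of the first copy still rose, by 2.12 ± 0.49 (edgeR adjusted p = 0.0178), and the second copy did not pass (adjusted p = 0.134). The call of the second copy by library size was lost without methylated replicate 1 (adjusted p = 0.135) or 2 (0.0521), while that of the first held without any 1 library.

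TRIM56, an E3 ubiquitin ligase, had the largest fitted change. Its CAACT adenosine had 32 and 10 counts in the methylated libraries and none in the unmethylated ones, at least 5.96-fold higher (edgeR adjusted p = 0.00195, and 0.0339 against the RNA total). It did not pass without methylated replicate 1 (adjusted p = 0.315), and an AGACC adenosine 4 nt away rose by 3.07 on the log2 scale (edgeR adjusted p = 0.0125). The only other copy that could be tested had 28 and 19 counts methylated and 14 and 5 unmethylated and did not pass (adjusted p = 0.341). TSPAN4, a tetraspanin, had 12 and 10 counts methylated and none unmethylated at CAACC, at least 3.12-fold higher (adjusted p = 0.0159), and its other copies held 0 or 1 count per library. It did not pass against the RNA total (edgeR adjusted p = 0.0633) or on leaving out any 1 of the 4 libraries (0.0565 to 0.315).

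WDR45, a WD-repeat protein of autophagy, had 21 and 21 counts at CAACC in the methylated libraries, against 1 and 0 in the unmethylated ones. The ratio of its depth-scaled counts was 35.8, with a 95% counting interval of 6.09 to 1449. It passed both edgeR tests (adjusted p = 0.00216, and 0.00345 against the RNA total) and reached 0.0508 without methylated replicate 1, and an AGACC adenosine 6 nt away rose by 3.18 on the log2 scale. At NKX2-5, a homeobox factor of heart development, 11 and 31 counts methylated stood against 1 and 0 unmethylated (edgeR adjusted p = 0.00408), and the counting interval was the same. A deeper NKX2-5 copy, the only other one tested, had 3.36 and 7.76 CPM methylated and 2.96 and 1.83 CPM unmethylated. Its log2 fold change was 1.20 ± 0.42, and it did not pass (edgeR adjusted p = 0.101). KLHL21, an adaptor of a cullin ubiquitin ligase, had 18 and 25 counts methylated and 0 and 2 unmethylated at CGACA, a ratio of 18.4 with an interval of 4.78 to 156 (adjusted p = 0.00479). Without methylated replicate 2 neither NKX2-5 (adjusted p = 0.329) nor KLHL21 (0.11) passed, while against the RNA total both did (0.0241 and 0.0234). At the called sites of these 3 genes the unmethylated group held 1 or 2 counts in all. Like the called sites of TRIM56 and TSPAN4, they were tested only because the methylated libraries were high, which fixed the direction in advance. For TRIM56, the second ARRDC1 copy, TSPAN4, WDR45, NKX2-5 and KLHL21 DESeq2 gave no adjusted p, with log2 fold changes of 4.18 to 6.59.

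Other rises rest on more counts. GPR157, an orphan G protein-coupled receptor, had 14.9 and 11.2 CPM at CAACA in the methylated libraries and 2.48 and 2.24 CPM in the unmethylated ones, a log2 fold change of 2.44 ± 0.36 (edgeR adjusted p = 0.000104). A GAACC adenosine 8 nt downstream rose by 4.97 on the log2 scale. The RNA total was higher after methylation, with means of 16562 counts methylated and 6521 unmethylated. Against that total the CAACA adenosine rose by 1.34 (edgeR adjusted p = 0.0173). The position was tested in 3 copies and rose in 1. ZNF503, a zinc finger protein, had 8.54 and 10.1 CPM at CGACA methylated and 3.24 and 3.74 CPM unmethylated, a log2 fold change of 1.39 ± 0.34 (edgeR adjusted p = 0.0152). There a GGACG adenosine at -3 rose by 4.38 on the log2 scale. The only other tested copy of the ZNF503 position gave 0.63 ± 0.51 and did not pass (edgeR adjusted p = 0.575). Against the RNA total ZNF503 passed (edgeR adjusted p = 0.0403), but by library size not without methylated replicate 2 (0.0974) or unmethylated replicate 1 (0.0557). TKT, the transketolase of the pentose phosphate pathway, was tested at CAACT in 2 copies. The deeper one had 83 and 74 counts methylated and 45 and 36 unmethylated and did not pass (log2 fold change 0.70 ± 0.36, edgeR adjusted p = 0.301). The other, admitted only through its methylated libraries, had 2.06 and 3.02 CPM methylated and 0.668 and 0.582 CPM unmethylated. Its log2 fold change was 1.99 ± 0.52 (edgeR adjusted p = 0.0234), and it passed against the RNA total too (adjusted p = 0.0454). Without methylated replicate 2 (adjusted p = 0.187) or unmethylated replicate 2 (0.0582) it did not pass by library size.

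Copies could disagree at high depth. In TGFBRAP1, a receptor-associated protein of endosomal tethering, the CGACT adenosine of one copy had 19.98 and 23.14 CPM methylated and 8.20 and 7.81 CPM unmethylated, a log2 fold change of 1.41 ± 0.30 (edgeR adjusted p = 0.00552). A second copy had 55.1 and 40.4 CPM methylated and 44.7 and 62.6 CPM unmethylated, with a log2 fold change of -0.19 ± 0.29 (adjusted p = 0.81). The third gave 0.29 ± 0.29 (adjusted p = 0.672). The RNA total of the first copy was higher after methylation, with mean totals of 3841 counts methylated and 1999 unmethylated, and its rise did not pass against that total (adjusted p = 0.304). FOXRED2, an endoplasmic reticulum protein, rose at CGACC in 1 of 2 tested copies, with 9.31 and 8.74 CPM methylated and 2.77 and 3.91 CPM unmethylated (log2 fold change 1.41 ± 0.35, edgeR adjusted p = 0.0165). Its RNA total was higher after methylation as well, it did not pass against that total (edgeR adjusted p = 0.233), and it was not called without methylated replicate 1 (0.108) or unmethylated replicate 1 (0.0889). A CAACG adenosine from chromosome 19, in a locus with no single gene, came closer between copies, with log2 fold changes of 1.78, 1.45 and 1.34 in 3 copies and edgeR adjusted p of 0.00505, 0.0523 and 0.0744. Against the RNA total the first did not pass (edgeR adjusted p = 0.0942).

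The strongest CRACN sites were strong without methylation too. The CGACA adenosine of the chromosome 22 locus had 51.03 and 47.49 CPM in the methylated libraries, against 61.4 and 49.6 CPM in the unmethylated ones, a log2 fold change of -0.19 ± 0.28 (edgeR adjusted p = 0.798). CREBBP, a histone acetyltransferase, had 29.8 and 32.6 CPM at CGACC methylated and 21.7 and 19.8 CPM unmethylated, a log2 fold change of 0.57 ± 0.28 (adjusted p = 0.286). H6PD, a hexose-6-phosphate dehydrogenase, had 16.7 and 13.3 CPM at CAACC methylated and 9.73 and 8.73 CPM unmethylated, a log2 fold change of 0.69 ± 0.31 (adjusted p = 0.228). Of the 8 sites with the highest mean CPM of their 5-mer, none rose by the edgeR test, and MID1IP1 fell.

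The fall in MID1IP1, a regulator of fatty acid synthesis, was the deepest in counts. Its CAACG adenosine had 13.3 and 14.4 CPM methylated and 39.1 and 50.1 CPM unmethylated, and it fell by 1.71 ± 0.30 on the log2 scale (edgeR adjusted p = 0.000724). It was the 1 fall that also passed against the RNA total (-0.90, adjusted p = 0.0318). Another copy, with 31 and 15 counts methylated and 4 and 14 unmethylated, had a log2 fold change of 1.12 ± 0.59 and did not pass (adjusted p = 0.322). ZBTB9 fell at CAACA, with 7 and 3 counts methylated and 21 and 22 unmethylated (log2 fold change -2.32 ± 0.60, edgeR adjusted p = 0.0223). This site was tested only because the unmethylated libraries were high, which fixed the direction in advance. The other ZBTB9 copies, each deeper, had log2 fold changes of -0.79 ± 0.38 and -0.84 ± 0.48. They did not pass (edgeR adjusted p = 0.271 and 0.368). PHF23, a PHD finger protein, fell at CAACC, with 22 and 17 counts methylated and 45 and 58 unmethylated (-1.64 ± 0.41, adjusted p = 0.0162). A deeper PHF23 copy had 69 and 82 counts methylated and 69 and 76 unmethylated. Its log2 fold change was -0.19 ± 0.33, and it did not pass (edgeR adjusted p = 0.833). In ZBTB9 and PHF23 the RNA total was lower after methylation too, with means of 1330 and 3903 counts methylated and 2200 and 6724 counts unmethylated, and neither fall passed against it (adjusted p = 0.347 and 0.553). Without methylated replicate 2 neither passed by library size (adjusted p = 0.190 and 0.146), nor did PHF23 without methylated replicate 1 (0.0592).

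The CRACN signal was also taken by the origin of the sequence, with no test of the difference between classes. The pooled ratio was 1.20 ± 0.0453 in RNAs of the m6A class, where 33 of 430 tested adenosines rose (7.67%, against 4.29% of all tested sites of that class). It was 1.12 ± 0.0912 in the unmodified class, where 16 of 261 rose (6.13%, against 3.01%). In the permutated class it was 1.23 ± 0.190, and 0 of 22 rose by the edgeR test (against 3.55%), with 2 of them higher at an unadjusted p under 0.05 and 0 by DESeq2. Along the RNA it was 1.23 up to position 47, 1.22 at positions 48 to 93 and 1.09 from position 94 on. Predicted pairing gave no order: the ratio was 1.22 where the adenosine had an unpaired probability under 0.25, 1.06 between 0.25 and 0.75 and 1.19 above 0.75.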

How the data were processed

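The authors deposited raw counts of truncation events per nucleotide position (141 positions, 11999 RNAs, 4 libraries), without normalization. Tools named in the submitters' processing notes are STAR 2.7.3a, bedtools 2.27.1 and FastQC 0.11.8. The handling of duplicates is not given in the sources used here, nor is the genome build. The members, tests and lists were chosen with earlier results of these data known. From the counts, CPM on library totals, pooled sums over members and ratios of group means with propagated SD were computed. Sites that reached 10 counts in 2 or more libraries were tested with edgeR 4.0.16 in R 4.3.3 (TMM scaling, group term only, Benjamini-Hochberg over all tested sites, two-sided, threshold 0.05), after a test on simulated data. A second fit took the log of the RNA total plus 1 as offset. SEs were derived from the log2 fold change and its F statistic. Pooled values were compared by exact two-sided permutation over the 4 libraries. Named sites were, among called sites with separate groups, the 6 largest rises, the 4 largest falls, the rise with the highest CPM of each 5-mer and up to 5 sequences higher in all tested tags, and besides these the tested site with the highest CPM of each 5-mer, whether called or not. Pairing was predicted with ViennaRNA 2.7.2. Of 3488 loci, 98.7% overlapped a RefSeq gene of GRCh38.p14, against 66.0% to 72.2% after shifts of 50000 or 500000 nt, and loci in more than 1 gene or none have no symbol here. Sites of the same replicate number did not deviate together across groups (r = -0.0637), so the numbers were not used as a block. Alternatives were DESeq2 1.42.0, library totals, other filters, the replicate block, summed tags, each library left out, the strongest sites left out, members far from DRACN and the described classes only. Summaries used Python 3.11.15, pandas 2.3.3, numpy 2.4.6 and scipy 1.17.1.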

Additional observations from a re-analysis of the deposited data

How the results depend on the processing

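The limits of these data are 2 libraries a group, thin coverage of most CRACN adenosines and the weight of a few strong ones. The 49 rises became 19 with DESeq2, 2 where any site with at least 1 count in 2 libraries was tested and 22 of the members at least 10 nt from DRACN. They numbered 49 with library totals, 40 with a filter of 20 counts and 42 with tags summed, and 21 to 48 with 1 library left out, 21 without methylated replicate 1 and 31 without methylated replicate 2. The 5 falls became 2 with DESeq2, 0 with the filter of 1 count, 3 with tags summed and 1 to 9 with 1 library left out (1 without methylated replicate 2, 3 without methylated replicate 1 and 9 without unmethylated replicate 2). Against RNA totals the 24 rises became 4 with the filter of 1 count, 9 among the far members and 9 to 29 with 1 library left out, 9 of them without methylated replicate 1 and 16 without methylated replicate 2, and the 1 fall became 0 with the filter of 1 count, 2 with tags summed and 0 to 1 with 1 library left out. The cause of these shifts was not tested, beyond fewer or more sites entering each fit. With the replicate block, which the check of pairing did not call for, 50 rose and 5 fell, and against RNA totals 27 rose and 1 fell.

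Without the strongest 1% of sites the pooled CRACN ratio moved to 1.26, its share of own RNAs to 1.26, its ratio against DRACN to 0.537 and that against CRA without C at +1 to 1.28. The same step moved CAACA to 1.28, CAACC to 1.24, CAACG to 1.24 and CGACG to 1.22. Among far members CAACA moved to 1.14, CAACC to 1.11, CAACG to 0.993 and CGACG to 0.934, and with the count filter CAACC moved to 1.15. With 1 library left out the CGACG ratio ran from 0.973 (without unmethylated replicate 2) to 1.17. Every other pooled ratio stayed above 1 (or, against DRACN, below 1) under the alternatives run. Scaling cancels in shares and class ratios and is replaced in the test against RNA totals, so no value is given there.

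Among the 32 named site values, library totals and the replicate block changed no call, DESeq2 lost 8 calls and gave no adjusted p for 8 others, whose folds kept their sign, RNA totals lost 14 and summed tags 5, and leaving out 1 library lost 5 to 14. The sites that changed sign had not been called. The chromosome 17 CAACA site moved to 0.055 against RNA totals and ran from -0.36 to 0.20 with 1 library left out, and the chromosome 9 CAACT site from -0.0062 to 0.49. The chromosome 22 CGACA site moved to 0.54 against RNA totals. The chromosome 14 CGACG site moved to -0.0039 against RNA totals and -0.034 with tags summed, and ran from -0.33 to 0.59. The uncalled TGFBRAP1 copy moved to 0.17 with tags summed and ran from -0.45 to 0.11.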
